A study of Caenorhabditis elegans with 2 samples.

Results

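The binding of the Caenorhabditis elegans protein B0019.2 was described at 6 genes of the TOR pathway, out of 19973 protein-coding genes on the 6 nuclear chromosomes. They were let-363, the TOR kinase itself, daf-15 and rict-1, which encode the complex partners Raptor and Rictor, the small GTPase genes rheb-1 and raga-1, and rsks-1, which encodes S6 kinase. The genes were chosen by the signal values of these same peak lists, because a strong peak in an intron of let-363 was already known, and the other 5 are genes of the same pathway. Their presence or absence in the lists is therefore given as a description, with no test.

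TOR is a protein kinase that couples growth, protein synthesis and ribosome production to amino acids and growth factor signals. It acts in a complex with Raptor, which drives translation and restrains autophagy, and in a separate complex with Rictor, which phosphorylates kinases of the AKT and SGK families. Lowered TOR activity lengthens the life of worms, and the kinase is needed for larval development and germline growth.

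The data were chromatin immunoprecipitation and sequencing (ChIP-seq) peak lists from 1 group of 2 biological replicates. Both libraries came from whole young adults of strain RW12288 at 63.5 h, raised from L1 larvae that had been starved after bleaching. The strain carries a CRISPR insertion on chromosome I that fuses B0019.2 to TY1, EGFP and a triple FLAG tag, and sonicated chromatin of 200 to 800 bp was precipitated with an antibody against GFP. All samples carried the tag, control libraries were not analysed here, the strain is 1 edited line, and in whole worms the tissue in which a site was bound is unknown.

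A peak was assigned to a gene when its summit, the base of highest signal, lay in a promoter window, which began 1000 bp before a gene or transcript start and ended 200 bp after it, or in an intron. The main list was the list named conservative, with 900 peaks made from both libraries. Each library also had its own list, of 524 peaks for replicate 1 and 496 for replicate 2. The 55591 ranked candidates of both libraries include those that did not reach the authors' limit on the irreproducible discovery rate (IDR), a measure of how well peak ranks agree between inputs. Conservative peaks had a −log10 global IDR of at least 2. The ranked list held 988 candidates at or above that value, so reaching it was not enough to enter the conservative list. The highest signal value was 2020 among ranked candidates and 697 in the conservative list, so some of the strongest candidates are also missing from it. The signal value is the authors' peak strength, with no stated scale, so it was compared only within a list, and ranks run from 1 for the strongest. The lists hold no read counts, and the depth behind each peak is unknown.

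Of the 6 genes, 2 had a summit in the conservative list. The summit of let-363 lay in an intron and that of rheb-1 lay in the promoter window. Among all protein-coding genes, 4.66% had a summit in a window or an intron of that list, 4.09% in a window and 0.916% in an intron. In the list of replicate 1 the only one of the 6 genes with a summit was let-363, where 3.02% of all genes had one. The same held in the list of replicate 2, where 2.86% of all genes had one. All 6 genes had at least 1 ranked candidate, as did 68.1% of all genes. Since the genes were chosen with these lists in view, nothing is read from their counts against these shares.

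The 30 ranked candidates of the 6 genes were unequal in number and strength, with 8 in promoter windows and 22 in introns. The ranked list of replicate 1 held 15 candidates of these genes and that of replicate 2 held 14. The longest genes held the most, 17 at rict-1, whose introns sum to 14102 bp, and 5 at let-363, whose introns sum to 9676 bp. At rsks-1 and raga-1 there were 3 each, and daf-15 and rheb-1 had 1 each. The strongest candidate of each gene had a median signal value of 47.1, with a range of 25.5 to 364. Over the 13608 protein-coding genes with a candidate, the median of the strongest was 35.1, with quartiles of 27.5 and 44.7. The 6 genes were chosen with these values in view, and a gene with many candidates tends to have a higher strongest one. Nothing is therefore read from the 2 medians.

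**Figure D1:**
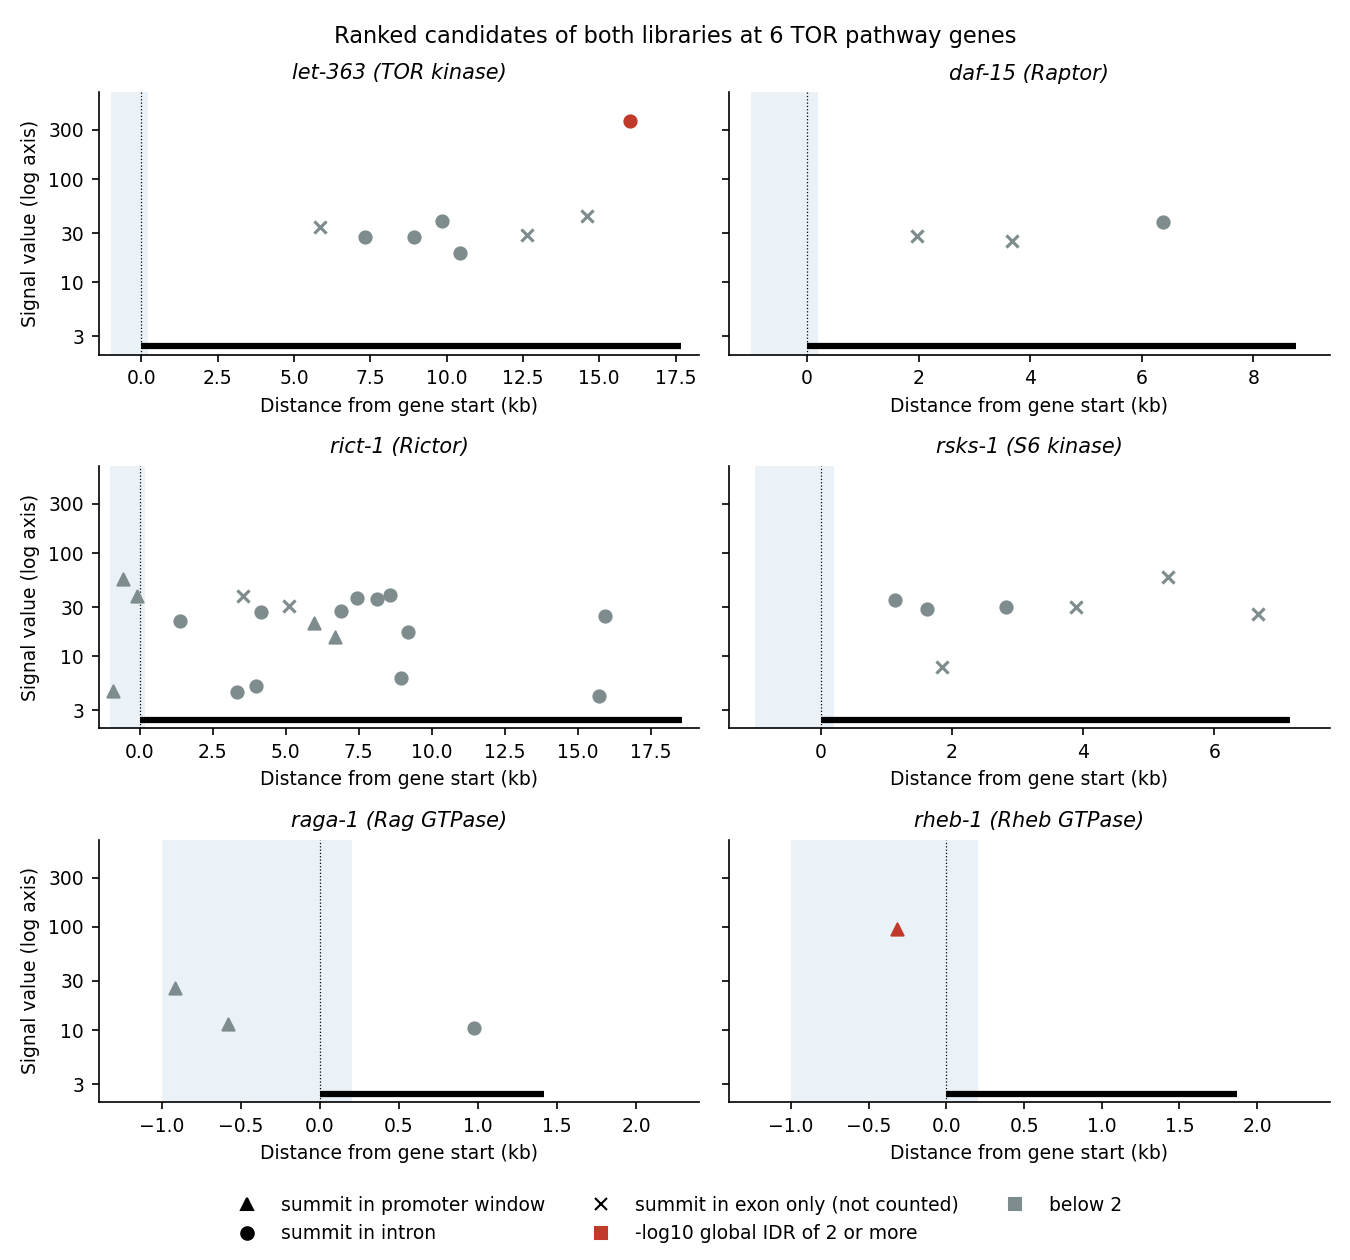
Signal value (log axis) of each ranked candidate against the distance of its summit from the gene start in kb, for the 6 genes, with the gene body as a black bar and the promoter window of the gene start shaded. Triangles inside the rict-1 body lie in windows of later transcript starts. Of the counted candidates only those of let-363 (364) and rheb-1 (95.5) reached a −log10 global IDR of 2.

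The peak in let-363 was among the strongest of the conservative list and lay near the 3′ end of the gene. The gene (WBGene00002583) spans 17682 bp, at chrI:5245743-5263424 of ce11 on the plus strand, and its product is the catalytic core of every TOR complex. In the conservative list the signal value was 364, at rank 16 of 900, in the top 1.78%. It was rank 24 among the ranked candidates, at the highest −log10 global IDR in the conservative list, a value of 5 that 77 conservative peaks shared.

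Each library showed the let-363 peak on its own. In replicate 1 the signal value was 198, at rank 14 of 524. In replicate 2 it was 172, also at rank 14, of 496. Both values were above the upper quartile of their own list, which was 88.3 in replicate 1 and 81.4 in replicate 2. The summits of the libraries were 13 bp apart.

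The peak was narrow as well as strong. It covered 152 bp in the conservative list, at chrI:5261690-5261841, with 132 bp in replicate 1 and 121 bp in replicate 2. Most conservative peaks, 824 of 900, had the full width of 270 bp, and 8.44% were narrower. The summit, at base 5261755, was in intron 29 of 31 in both annotated transcripts. This intron is 571 bp long, the fifth longest of the gene, where the median intron is 56 bp. From the summit it was 138 bp back to the end of exon 29 and 434 bp on to exon 30.

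The let-363 site was far from the start of its own gene and outside the promoter window of every annotated gene start. It lay 16012 bp from the start of the gene, at 90.6% of its length, and 15974 bp from the nearer transcript start. The end of the gene was 1669 bp away. The closest gene start was that of vep-1, the next gene on the same strand, which begins 269 bp after let-363 ends. That start was 1939 bp downstream of the summit. The summit was thus outside the vep-1 window of 1000 bp but would be inside the alternative window of 2000 bp. No gene other than let-363 overlapped the summit.

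**Figure D2:**
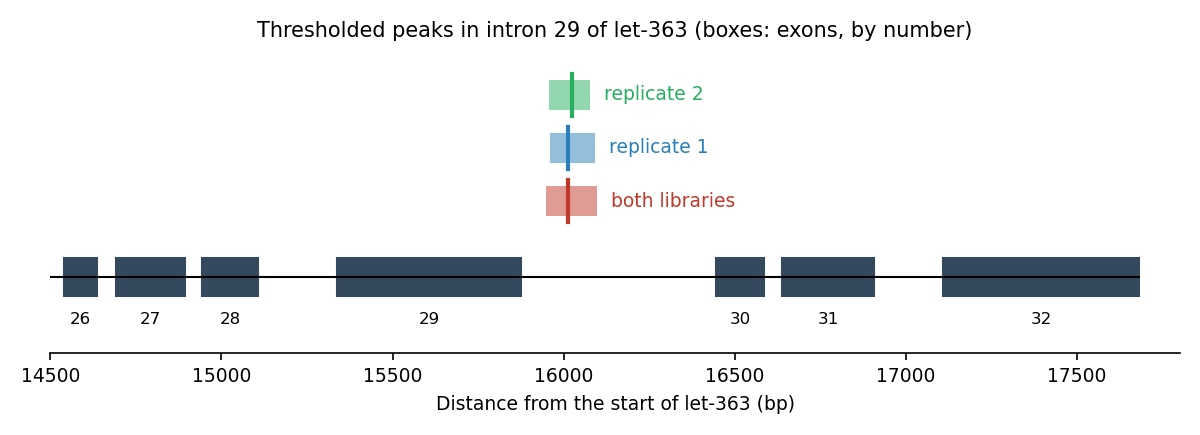
Map of the 3′ part of let-363, with distance from the gene start in bp, exons as numbered dark boxes, and the peak in the conservative list (both libraries) and in each library's own list as bars with the summit as a vertical line. All 3 peaks lie inside intron 29, and the summits of both libraries are 13 bp apart.

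The window at the annotated starts of let-363 held no ranked candidate. The gene mrpl-47 ends 340 bp upstream on the same strand, and whether the 2 genes are transcribed together was not checked. The closest upstream candidate was 2407 bp before the gene start, in the promoter window of mrpl-47, with a signal value of 24.6 at rank 34566. The other 4 intron candidates of the gene had values from 19.4 to 39.4 and lay at ranks 9756 to 43334. The strongest and the weakest of these overlapped B0261.6, a gene on the opposite strand inside let-363. A further 3 candidates lay in exons and were not counted, with values of 29.1 to 43.7. None of these 7 weaker candidates in the gene body was in the conservative list.

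Most conservative summits lay in promoter windows. Of the 900 conservative summits, 726 lay in the window of the gene start of at least 1 gene of any type. Windows of other transcript starts were left out of this count. In an intron of a protein-coding gene and in no window of a gene start there were 65, and the remaining summits lay in neither. Among those 65 the let-363 peak had the 3rd highest signal value, after T06D8.10 at 523 and nstp-10 at 378, which were at ranks 8 and 15 of the whole list. The nstp-10 summit was 215 bp after its gene start, just past the window's end at 200 bp, and that of T06D8.10 was 5853 bp after its start. The next values were 211 in cmk-1, which encodes a calcium/calmodulin-dependent kinase, and 196 in tir-1, which encodes the worm SARM protein of neurons and immunity. The median of the 65 was 92.5. Their median distance from the start of the host gene was 2329 bp, and 3 of them, let-363 included, were 16012 bp or farther from it.

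The 5 peaks most like that of let-363 by rank in all 3 thresholded lists were at promoters. Likeness was the summed difference in rank over the conservative list and both library lists, among 336 conservative peaks found in both libraries. The 5 nearest by this measure had rpl-35, kin-35, rps-24, cdc-48.1 and hcp-3 as closest genes. They encode, where known, proteins of the large and small ribosomal subunits (RPL-35 and RPS-24), the p97 ATPase CDC-48.1 and the centromeric histone HCP-3. Their signal values ran from 358 to 414 and their summits lay 171 to 640 bp upstream of the gene start. All 5 were also narrower than the full width of 270 bp, so narrowness was not particular to the let-363 peak. The rpl-35 peak, at chrIII:7854628-7854779, had a value of 381 at ranks 14, 12 and 16, beside ranks 16, 14 and 14 for let-363. By the conservative list alone, the intron peak of nstp-10, at rank 15, was directly above let-363.

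At daf-15, the gene of the Raptor subunit, signal was weak. The gene (WBGene00000911) lies at chrIV:9386208-9394979 of ce11 on the plus strand. Its only counted candidate had a signal value of 38.5, at rank 10745 and a −log10 global IDR of 0.227, in an intron of 483 bp, 6390 bp from the gene start. Replicate 1 had a candidate there with a value of 20.6 at rank 15043 in its ranked list, and replicate 2 had none. Replicate 2 instead had a candidate 33 bp after the gene start, with a value of 20.3 at rank 11367. The libraries thus shared no counted candidate at daf-15.

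At rict-1, the gene of the Rictor subunit, many candidates were ranked and none passed. The gene (WBGene00009245) lies at chrII:13098239-13116810 of ce11 on the minus strand. The 17 candidates had signal values from 4.09 to 55.8 with a median of 21.7, and 5 were in promoter windows. Several intron candidates overlapped pqn-32, a gene nested inside rict-1 on the opposite strand, so they cannot be given to rict-1 alone. The strongest candidate, at chrII:13117250-13117519, had a value of 55.8 at rank 2081 and a −log10 global IDR of 1.04.

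The strongest rict-1 candidate was shared with a neighbouring promoter. Its summit lay 575 bp upstream of rict-1 and 98 bp upstream of gfm-1, a mitochondrial elongation factor gene that starts 673 bp away on the other strand. In the ranked list of replicate 1 its value was 28.2 at rank 4214, with the summit 93 bp closer to rict-1. In that of replicate 2 it was 24.5 at rank 5294. Both values were low for the library lists, where the 5th percentile of the signal value was 45.2 in replicate 1 and 42.3 in replicate 2. A second candidate, 98 bp upstream of rict-1, had a value of 38.6 at rank 10678.

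The sequence around this rict-1 candidate is shown because it was the strongest counted candidate of the genes without a passing peak and differed in base composition from the rheb-1 site. It is the plus strand of chrII:13117335-13117434 in the RefSeq genome (WBcel235, the coordinates of ce11), with capitals for the 21 bases centred on the summit. Only 20% of the 100 bases were G or C.
rict-1: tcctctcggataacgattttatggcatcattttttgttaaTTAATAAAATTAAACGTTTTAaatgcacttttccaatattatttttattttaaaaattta

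Of the GTPase genes, rheb-1, whose product switches on TOR in the Raptor complex, had a peak in the conservative list that neither library's own list held. The gene (WBGene00010038) lies at chrIII:9454163-9456030 of ce11 on the minus strand. The peak had a signal value of 95.5, at rank 454 of 900 and a −log10 global IDR of 2.98, near the list's median signal value of 95.7. In the ranked list of replicate 1 the value was 54.9 at rank 439, with a −log10 global IDR of 0.784. In that of replicate 2 it was 39.8 at rank 801, with 0.805. The replicate 1 value was above the 5th percentile of that library's own list, 45.2, and the replicate 2 value was below that of its list, 42.3. The summits of the libraries lay within 11 bp of the conservative summit, and the peak was also absent from the authors' other list of both libraries, which has 866 peaks.

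The rheb-1 peak lay in a divergent promoter. Its summit was 319 bp upstream of rheb-1 and 259 bp upstream of spk-1 (WBGene00004980), which encodes an SR protein kinase of the splicing machinery and starts 578 bp away on the plus strand. The start of spk-1 was the closer one, and the summit counts for both genes. No other ranked candidate of both libraries lay in the window or introns of rheb-1. The ranked list of replicate 1 had a weak candidate of 16.4 in an intron, 219 bp after the gene start, and that of replicate 2 had one of 11.8 at 499 bp. The next one upstream was 1858 bp away, outside the window, with a signal value of 45.6 at rank 5086.

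The whole rheb-1 peak is shown because it was the only promoter peak of the 6 genes in the conservative list. It is the plus strand of chrIII:9456214-9456483 in the RefSeq genome, with capitals for the 21 bases centred on the summit. It overlapped no annotated gene, and 42.6% of its 270 bases were G or C.
rheb-1: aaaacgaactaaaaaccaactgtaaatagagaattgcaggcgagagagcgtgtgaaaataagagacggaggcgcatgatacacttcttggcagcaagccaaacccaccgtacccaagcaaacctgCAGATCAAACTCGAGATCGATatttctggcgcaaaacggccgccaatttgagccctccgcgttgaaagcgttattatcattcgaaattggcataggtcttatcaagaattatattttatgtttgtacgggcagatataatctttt

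Of 7 short motifs searched on both strands, 2 were present in the rheb-1 peak. The motif TGATAA occurred on the minus strand, read as TTATCA, at bases 199 to 204 and 224 to 229, which is 63 and 88 bp after the summit. The motif GAGAGA occurred at bases 42 to 47. These letters are common, since TGATAA was in 20.4% of 55510 full-width candidates and in 14.2% of 824 full-width conservative peaks. For GAGAGA the shares were 16.3% and 23.5%. The E-box CACGTG was not in this peak, and neither were the forkhead-type letters GTAAACA, the E2F-type letters TTCCCGCC, the run CTGCGTCT or the TATA-type letters TATAAA. Among full-width candidates, the share that held one of these ranged from 1.3% for the E2F-type letters to 20.8% for the TATA type.

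At raga-1, which encodes the Rag GTPase that brings TOR to the lysosome when amino acids are present, the strongest candidate was weaker than that of any other of the 6 genes. The gene (WBGene00006414) lies at chrII:11301359-11302776 of ce11 on the plus strand. Its 3 candidates had signal values of 25.5, 11.4 and 10.5, and the strongest was at rank 32696. That summit lay 919 bp upstream of raga-1, near the edge of the window, and within the neighbouring gene saps-1. In replicate 2 its value was 22.3 at rank 7815, and replicate 1 had no matching candidate. The candidate of replicate 1 in the raga-1 window was elsewhere, 744 bp upstream, with a value of 10.9 at rank 41196.

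At rsks-1, whose product is the S6 kinase that TOR phosphorylates to raise translation, the strongest candidate fell outside the assignment rule. The gene (WBGene00012929) lies at chrIII:11245120-11252281 of ce11 on the plus strand. The 3 counted candidates were in introns and had signal values of 35.1, 29.9 and 29.0. The strongest was in intron 1 of 5, 1134 bp from the gene start, at rank 15054. In replicate 1 its value was 15.9 at rank 28048, and in replicate 2 it was 12.4 at rank 33717. A candidate in coding exon 5 of 6, at chrIII:11250282-11250551, had a higher value of 58.3 at rank 1752. Its −log10 global IDR was 1.5, and the value was 33.8 in replicate 1 and 26.7 in replicate 2.

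**Figure D3:**
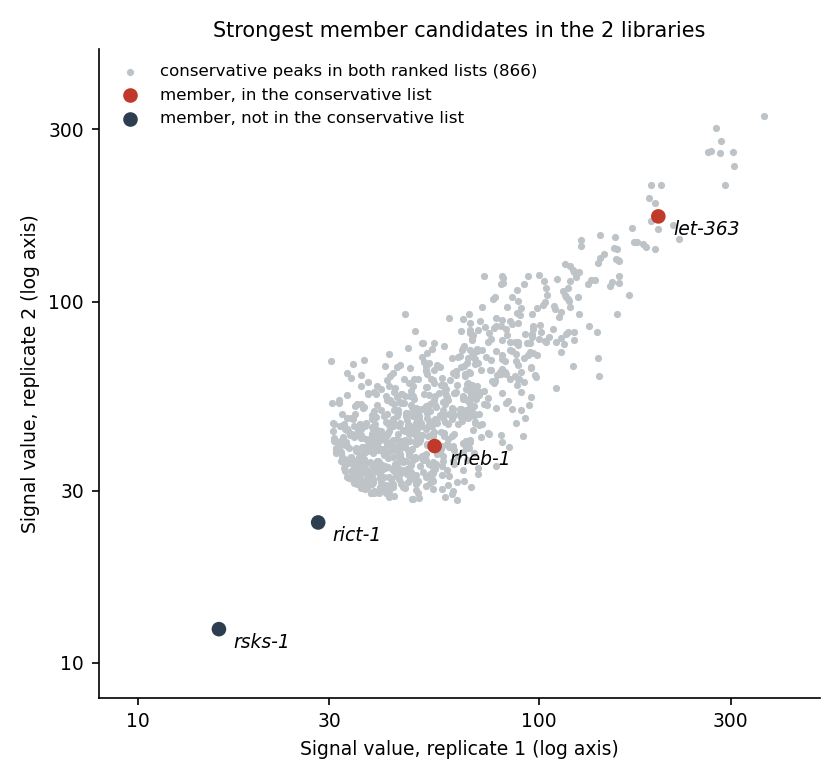
Signal value in replicate 2 against replicate 1 (log axes) for the strongest candidate of each gene matched in both libraries, over the 866 conservative peaks matched in both ranked lists (grey). The let-363 peak (198 and 172) is among the strongest points, rheb-1 (54.9 and 39.8) is inside the cloud, and rict-1 (28.2 and 24.5) and rsks-1 (15.9 and 12.4) lie below it.

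The order of the 6 genes by their strongest counted candidate was let-363, rheb-1, rict-1, daf-15, rsks-1 and raga-1. The 4 genes whose candidate was matched in both libraries, let-363, rheb-1, rict-1 and rsks-1, had this same order in each library. The places of daf-15 and raga-1 rest on 1 library each. In percent of the 55591 ranked candidates the places were 0.0432 for let-363, 0.917 for rheb-1, 3.74 for rict-1, 19.3 for daf-15, 27.1 for rsks-1 and 58.8 for raga-1. Among counted candidates, the IDR limit fell between rheb-1 (2.98) and rict-1 (1.04).

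Base composition around the strongest summits split the genes in another way. In the 100 bp around the summit, G and C made up 58.0% at raga-1, 55.0% at rheb-1 and 45.0% at let-363. The shares were 23.0% at daf-15, 21.0% at rsks-1 and 20% at rict-1. Conservative peaks had a median of 47%, with quartiles of 41.0% and 53.0%, and all ranked candidates had a median of 40%. The genes with a conservative peak were thus near or above the list's median, the weakest of all, raga-1, was the highest, and daf-15, rsks-1 and rict-1 were below the lower quartile of 34% of all candidates. The RefSeq genome marks as repetitive or of low complexity 91.0% of the bases in this window at rsks-1, 81.0% at daf-15, 64.0% at rict-1 and 27% at let-363, and none at raga-1 or rheb-1. Windows with such marked bases were common, at 66% of all ranked candidates and 71% of conservative peaks. The part of base composition or repeats in the signal values was not tested. Of the 7 motifs, GAGAGA was found in the 100 bp window of daf-15, as in 6.43% of all candidates, and no motif was found in those of the other 5 genes.

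Other genes of the TOR network were taken from a list of 58 symbols, of which 56 were found in the annotation. Of the 56, 5 had a summit in the conservative list, or 8.93%, beside 4.66% of all protein-coding genes. In each library's own list there were 3, and 52 had a ranked candidate. The strongest candidates of these genes had a median signal value of 39.4, beside 35.1 over all genes with a candidate. The list of symbols was also chosen with earlier results of these data known, so these values are a description and no excess is read from them. All 5 passing summits were in promoter windows and each had the network gene as its nearest gene start.

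On the amino acid input to TOR, 2 of 11 genes had a conservative peak. The groups are small, so this and the other group counts are not read against the 4.66% of all protein-coding genes. The gene lmtr-3, a subunit of the Ragulator complex that anchors the Rag GTPases on the lysosome, had the strongest network peak after let-363. It had a signal value of 132 at rank 220, with 70.5 in replicate 1 and 67.8 in replicate 2, and its summit, 70 bp upstream, was also in the window of atp-5. The gene npp-18, which encodes the Seh1 protein of the nuclear pore and of the GATOR complex, had a value of 83.0 at rank 600, and neither library's list held it. The fnip-2 gene, a folliculin partner, had an intron candidate of 58.5 that did not pass, with a −log10 global IDR of 0.113.

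Among complex and assembly genes 1 of 5 had a peak, and among translation targets 1 of 9. The former was ruvb-1, a RuvB-like ATPase that helps to assemble TOR complexes, with a signal value of 90.4 at rank 509 in a window shared with tofu-1. Neither library's list held it. The latter was eef-2, translation elongation factor 2, with 103 at rank 377 in a window shared with clsp-1, and with 54.0 in replicate 1 and 45.2 in replicate 2. The rps-6 gene, whose protein is the classic substrate of S6 kinase, had a candidate of 64.1 that did not pass, with a −log10 global IDR of 1.53. Its summit was also in the windows of Y71A12B.30, Y71A12B.31 and usp-3, and the start of Y71A12B.30 was the closest.

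Autophagy genes had 1 peak in 7 genes, and the other upstream and downstream groups had none. The peak was at lgg-1, the GABARAP-type protein of autophagosomes, with a signal value of 92.1 at rank 492, and with 51.1 in replicate 1 and 42.7 in replicate 2. None of 11 genes grouped under AMPK, the energy sensor that restrains TOR, had a conservative peak. This group included par-4 and strd-1, which do not encode AMPK subunits. The same was true of 9 insulin and AKT genes and of 4 transcription factors downstream of TOR. With 4.66% of all protein-coding genes in that list, groups of this size would often hold no such gene, and nothing is read from these zeros. The strongest candidate among these was in an intron of daf-2, the insulin receptor, 32509 bp from the gene start, with a value of 67.5 at rank 1086 and a −log10 global IDR of 0.909. The transcription factors had the highest group median, 57.2, although none passed. These 4 genes held 8 to 22 ranked candidates each, more than most other network genes. The strongest of many candidates tends to be higher, so nothing is read from this median.

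**Figure D4:**
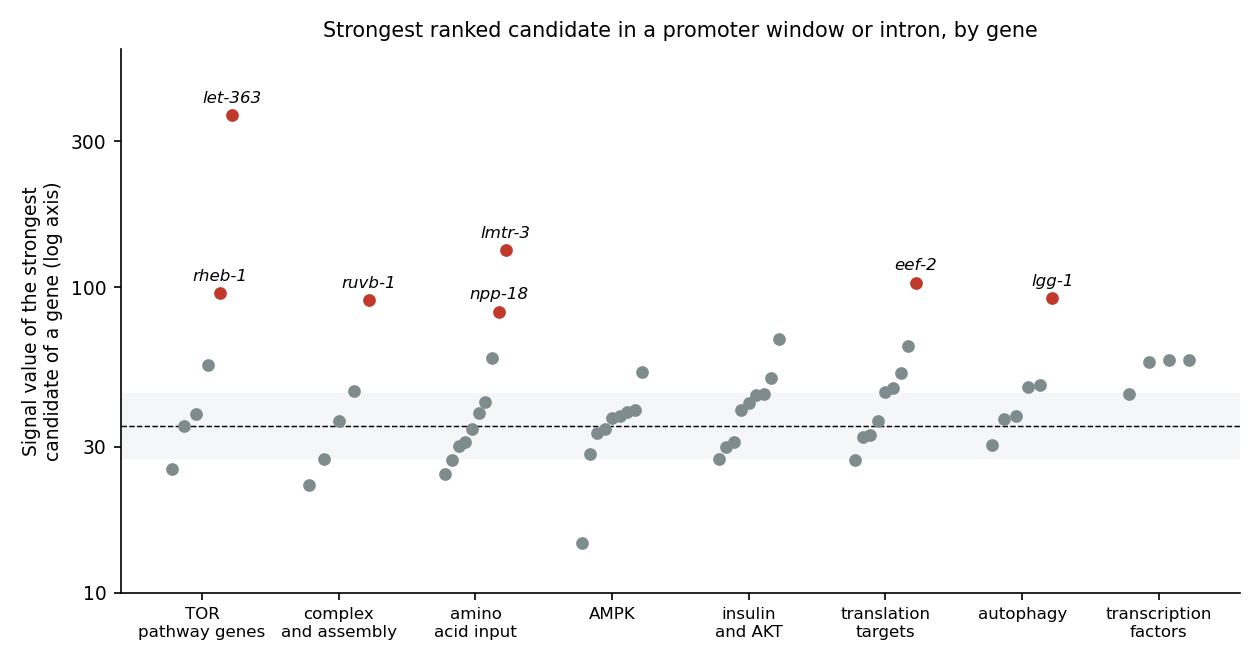
Signal value (log axis) of the strongest ranked candidate of each gene, by group, with genes that have a conservative peak in red and named. The dashed line and the shaded band are the median (35.1) and quartiles (27.5 and 44.7) of all 13608 protein-coding genes with a candidate, and let-363 stands above every other network gene.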

How the data were processed

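Peak lists of 2 ChIP-seq libraries, 1 group of biological replicates per the labels, were used on assembly ce11. The aligner and the peak caller were not given in the sources used here. No read counts are held, so depth is unknown and no interval was given. The authors deposited a ranked and a thresholded list per library and for both libraries together, per the readme files. Peak strength is a deposited signal with no stated scale, and the deposited ranked lists add −log10 of the global IDR. A limit of 2 on that scale (an IDR of 0.01) held for every conservative peak. An input of the thresholded lists is undescribed in the readme files, and 16 columns of values per input, which no label ties to a sample, were not used. Control libraries were not analysed here.

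Summits were assigned with Ensembl release 115 genes of WBcel235, a summit counting for every gene that held it. Windows ran from 1000 bp upstream to 200 bp downstream of gene and transcript starts. Peaks were matched between lists where they overlapped by at least 50% of one of them. Motifs were searched in the 100 bp around a summit and in the full width of peaks. In a check on simulated summits at 200 genes, 1506 of 1506 were called correctly. Some of these were placed just outside a window and had to be left unassigned. The check covered windows of gene starts and not those of other transcript starts. Its intron summits were placed in the same introns used to assign them, so they could not fail. The members, gene lists and motifs were chosen with earlier results of these data known. Named were the 6 genes, genes sharing their summits, network genes with a conservative summit, the 3 highest below the limit and the 5 most alike by rank. The rsks-1 exon candidate and the intron peaks of T06D8.10, nstp-10, cmk-1 and tir-1 were named after their values were seen. Alternatives were other windows, gene starts, lists, libraries and rankings. Python 3.11.15, numpy 2.4.6, pandas 2.3.3 and matplotlib 3.10.9 were used.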

Additional observations from a re-analysis of the deposited data

How the results depend on the processing

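The 2 genes with a conservative summit, let-363 and rheb-1, were also counted with windows of 500 and 100 bp, with windows of 2000 and 500 bp, and from gene starts alone. The count was 1 with promoter windows alone (rheb-1), in the other thresholded list (let-363), among the stronger peaks by signal value (let-363) and in either library's list (let-363), so that it was 1 without replicate 1 and 1 without replicate 2. It was also 1 (let-363) when a window summit counted for the nearest gene start alone, an alternative chosen after seeing the data. The count of 5 other network genes was 3 without replicate 1, 3 without replicate 2, 2 among the stronger peaks, and 5 under the remaining alternatives. The 30 ranked candidates were 26 to 36 with other windows, 30 with gene starts alone and with introns outside every exon, and 8 with promoter windows alone. The rank of the let-363 peak, 16 in the conservative list, was 16 in the other list and 14 in each single library. IDR gives it no rank of its own, since 77 peaks tie at the highest value and the signal value orders them. Its distance from the nearest transcript start, 15974 bp, was 15974 to 15987 bp in the single libraries.

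No paired analysis was possible because there is 1 group and no result comes from a test. With 2 libraries and no counts, no error can be put on a signal value beyond the value in each library. Signal at rict-1 and rheb-1 cannot be told apart from signal at gfm-1 and spk-1, which share those summits.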
